A study of Mus musculus with 18 samples.

Results

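Proximal tubule cells take back most of what the kidney filters, and the 9 genes described here encode the carriers, the channel and the receptors that they use for phosphate, sodium, bicarbonate, water and protein. The genes were chosen by symbol, for their roles: Slc34a1, Slc34a3, Slc9a3, Slc4a4, Aqp1, Lrp2, Cubn, Amn and Dab2. All 9 were found among the 19545 genes of the expression table, and all 9 passed the filter on low values (1 FPKM or more in no fewer than 3 libraries), which kept 12385 genes. RNA sequencing of kidney was available from ICR mice aged 10 weeks, in 18 libraries that formed 6 groups of 3. HS_AOS mice had a high fat diet and STZ (streptozotocin, a toxin of pancreatic beta cells that raises blood glucose) together with AOS at 10 mg/kg. HS_AOS_FMT and HS_control_FMT mice had the same diet and STZ and a faecal microbiota transplantation (FMT), labelled by AOS at 10 mg/kg in the first group and by control in the other. HS mice had the diet and STZ without AOS or FMT. AOS mice had AOS at 10 mg/kg without diet or STZ, and control mice carried no treatment. The labels do not spell out AOS, do not say how or for how long it was given, and do not describe the donors of the FMT. They also do not tell whether each library came from its own mouse, so every p-value measures only the spread between these libraries.

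Sodium that leaves the proximal tubule cell for the blood side, pumped by the sodium, potassium ATPase, leaves a gradient that other carriers draw on. NaPi-IIa (Slc34a1) and NaPi-IIc (Slc34a3) use it to bring phosphate in across the brush border, and NHE3 (Slc9a3) uses it to secrete protons, which lets filtered bicarbonate be recovered and handed to the blood by NBCe1 (Slc4a4). Filtered protein is bound by megalin (Lrp2) and by cubilin (Cubn), which needs amnionless (Amn) to reach the membrane, and both are taken in through clathrin-coated pits with the help of the adaptor Dab2.

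Every one of the 9 genes had at least 1 window of promoter sequence in the RefSeq table, and Slc4a4 and Dab2 each had 2, which made 11 windows. The 250 bases before a transcription start are shown for Slc9a3 and Dab2, the genes that passed the test between HS_AOS and HS (below the threshold of 0.05 on the adjusted p). They come from RefSeq on GRCm38.p6. The Slc9a3 window is chr13:74121163-74121412 on the plus strand, and the Dab2 window, that of the downstream start, is chr15:6386498-6386747 on the plus strand. Both lie inside the spans that RefSeq gives the genes, which reach from 74086255 to 74169442 on chromosome 13 for Slc9a3 and from 6299788 to 6440715 on chromosome 15 for Dab2. Capitals mark the GC box GGGCGG or its reverse complement CCGCCC in the first, and the HNF1 half-site GTTAAT or its reverse complement ATTAAC in the other.
Slc9a3: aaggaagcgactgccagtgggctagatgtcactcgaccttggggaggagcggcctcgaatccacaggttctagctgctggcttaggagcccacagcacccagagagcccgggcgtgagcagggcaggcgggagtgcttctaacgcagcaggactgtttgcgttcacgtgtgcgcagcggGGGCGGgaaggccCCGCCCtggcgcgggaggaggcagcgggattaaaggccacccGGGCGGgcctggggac
Dab2: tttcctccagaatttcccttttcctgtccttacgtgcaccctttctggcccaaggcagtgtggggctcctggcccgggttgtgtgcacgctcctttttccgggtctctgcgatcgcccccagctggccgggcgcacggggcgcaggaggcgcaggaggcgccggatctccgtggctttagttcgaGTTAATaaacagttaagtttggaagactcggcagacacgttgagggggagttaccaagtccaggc
Letters were searched on both strands. The GC box stood 3 times in the Slc9a3 window and in 32.7% of the 32851 windows of the table, and the HNF1 half-site stood 1 time in this Dab2 window and in 6.4% of all windows. The Slc34a1 window held the HNF1 half-site 2 times, and the upstream Dab2 window held neither. The letters TATAAA, or TTTATA on the other strand, were in none of the 11 windows, against 12.4% of all windows. The Slc9a3 window is 67.6% G or C, the Dab2 window 60%, the Slc34a1 window 46.4% and the Cubn window 39.6%. These matches describe the letters of the windows and nothing measured in these kidneys.

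Levels are given in FPKM, which counts fragments relative to transcript length and library size, so genes can be compared on this scale. Depth is not stated for these values, and the number of genes above 0 lay between 15773 and 17270 per library. Markers of the proximal tubule (21 genes, none of the 9) summed to between 9201 and 15766 FPKM per library, so the labelled tissue held the cells that use these genes. Adrenal markers (12 genes) summed to 919 FPKM in control 3, 584 FPKM in HS 3 and 416 FPKM in HS_AOS_FMT 2, while 5 of the 12 were at 0 in all HS_AOS libraries. The lowest sum in HS_AOS_FMT was 8.51 FPKM, against at most 2.37 FPKM in HS_AOS, HS_control_FMT and AOS. HS_AOS_FMT 3 had 6.11 FPKM of Cyp11b1, 1 of these markers. Control 3 also held Havcr1, a marker of injured tubules, at 19.4 FPKM, against 5.3 FPKM or less in every other library. Kap, a proximal tubule transcript, was at 15798 FPKM in control 3, against 66020 FPKM or more in every other library. The mean log2(FPKM + 1) of the proximal tubule markers was 7.95 in control 3, against 8.10 or more elsewhere. In RNA of bulk kidney, fewer cells of a type and less RNA per cell cannot be told apart.

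**Figure D1:**
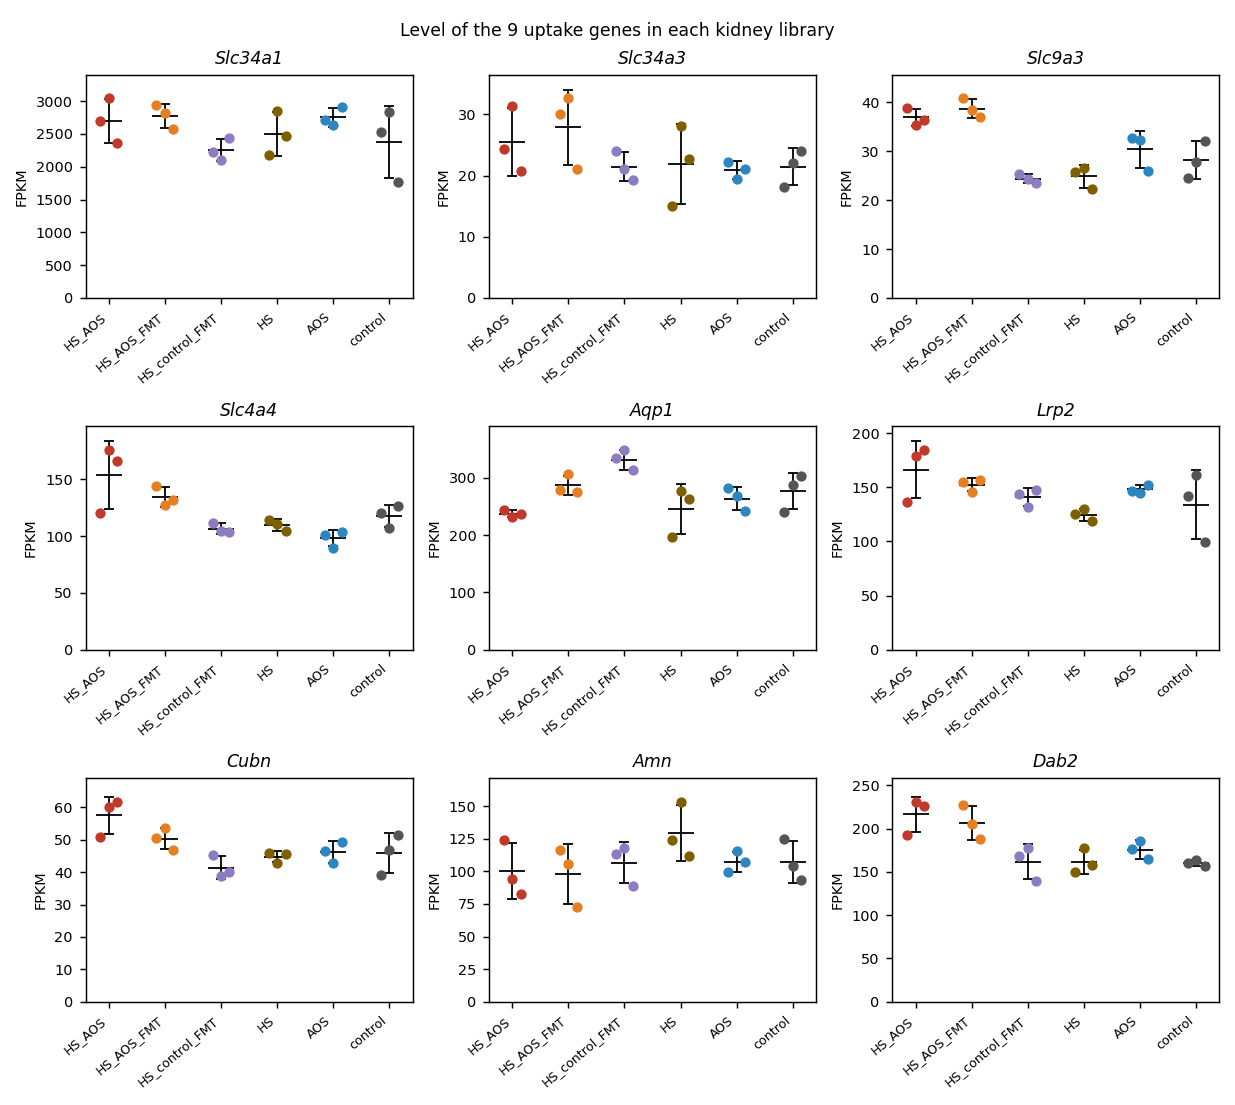
Level in FPKM (vertical axes, linear and starting at 0) of each of the 9 genes in each of the 18 kidney libraries, by group; points are libraries, horizontal bars are group means and error bars are SD (n = 3). Slc9a3 lies between 35.4 and 40.8 FPKM in HS_AOS and HS_AOS_FMT and between 22.2 and 32.8 FPKM in the other 4 groups.

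Neither phosphate carrier passed a test in any comparison, except that with array weights Slc34a1 passed in HS_AOS_FMT against HS_control_FMT, Slc34a3 in HS_AOS against control, and both in the test over the 6 groups. With these weights 2409, 3420 and 7790 of all 12385 tested genes passed in those tests. Slc34a1, the main phosphate carrier of the mouse brush border, averaged 2558 FPKM and ranked 12 among the 12385 genes tested. Slc34a3, its partner, averaged 23.2 FPKM and ranked 3385. Within a library the level of Slc34a1 was between 73.1 and 145 times that of Slc34a3, with a median of 113.

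Slc34a1 had 2693, 3041 and 2364 FPKM in HS_AOS, 2939, 2814 and 2574 FPKM in HS_AOS_FMT and 2219, 2104 and 2433 FPKM in HS_control_FMT. It had 2177, 2843 and 2464 FPKM in HS, 2719, 2633 and 2908 FPKM in AOS and 2529.5, 2830.3 and 1762 FPKM in control. Control 3 was the lowest of all 18 libraries and HS_AOS 2 the highest, a ratio of 1.73 between them. Group means ran from 2776 ± 185 FPKM in HS_AOS_FMT down through AOS, HS_AOS, HS and control to 2252 ± 167 FPKM in HS_control_FMT (SD, n = 3 each). No neighbouring pair in that order lay further apart than the larger of its SDs. The libraries of HS_AOS_FMT all lay above those of HS_control_FMT, and that difference did not pass the test (log2 fold change 0.30, 95% interval -0.02 to 0.63). The interval for HS against control was -0.23 to 0.42 and that for HS_AOS against HS was -0.21 to 0.44.

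Slc34a3 had 24.3, 31.5 and 20.7 FPKM in HS_AOS, 30, 32.6 and 21 FPKM in HS_AOS_FMT and 24.1, 21.1 and 19.3 FPKM in HS_control_FMT. It had 15.1, 28.1 and 22.7 FPKM in HS, 22.3, 19.5 and 21.1 FPKM in AOS and 18.2, 22.1 and 24.1 FPKM in control. The group means fell between 27.9 ± 6.09 FPKM in HS_AOS_FMT and 20.9 ± 1.42 FPKM in AOS, with HS 1 the lowest library and HS_AOS_FMT 2 the highest. The order was HS_AOS_FMT, HS_AOS, HS, HS_control_FMT, control and AOS, with every neighbouring pair closer than the larger SD. Its changes were the least precise of the 9, with intervals of -0.21 to 0.67 for HS_AOS against HS and -0.10 to 0.78 for HS_AOS_FMT against HS_control_FMT on the log2 scale.

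Slc9a3 was the member that differed most firmly between the groups. It was about 1.49 times as high in HS_AOS as in HS and 1.59 times as high in HS_AOS_FMT as in HS_control_FMT. NHE3, its product, exchanges sodium for protons at the brush border and carries much of the sodium and bicarbonate recovery of this segment. Slc9a3 had 38.9, 35.4 and 36.4 FPKM in HS_AOS, 40.8, 38.4 and 37 FPKM in HS_AOS_FMT and 25.3, 24.3 and 23.4 FPKM in HS_control_FMT. It had 25.7, 26.6 and 22.2 FPKM in HS, 32.8, 32.4 and 25.9 FPKM in AOS and 24.5, 27.8 and 32.2 FPKM in control. Every HS_AOS and HS_AOS_FMT library lay above every library of the other 4 groups, and HS_control_FMT and HS overlapped. The means ran from 38.7 ± 1.94 FPKM in HS_AOS_FMT through HS_AOS, AOS, control and HS to 24.4 ± 0.925 FPKM in HS_control_FMT (SD, n = 3 each). Of the neighbouring pairs only HS_AOS and AOS lay further apart than the larger SD.

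By limma's moderated test, with p-values adjusted over all tested genes by the method of Benjamini and Hochberg, Slc9a3 rose in HS_AOS against HS (log2 fold change 0.56, SE 0.105, adjusted p = 0.0239). It rose in HS_AOS_FMT against the same HS libraries (log2 fold change 0.62, SE 0.105, adjusted p = 0.0209). It also rose in HS_AOS_FMT against HS_control_FMT, a comparison that uses no HS library without FMT (log2 fold change 0.65, SE 0.105, adjusted p = 0.00583). These log2 fold changes come from log2(FPKM + 1), so for a gene of low level they come out smaller than the true ones. HS_control_FMT and HS differed by -0.02 on that scale, with a 95% interval of -0.25 to 0.20. In HS against control Slc9a3 had the smallest p of the 9 genes and did not pass (log2 fold change -0.17, SE 0.105, adjusted p = 0.845), and its change was 0.004 without the 3 adrenal-rich libraries, -0.07 without control 3, -0.09 without HS 3 and -0.26 without control 1. Against control, HS_AOS (log2 fold change 0.39, SE 0.105, adjusted p = 0.0646) and HS_AOS_FMT (log2 fold change 0.45, SE 0.105, adjusted p = 0.0623) did not pass. Without control 3 both passed, at 0.48 (adjusted p = 0.0168) and 0.55 (adjusted p = 0.0176). Relative to proximal tubule markers HS_AOS_FMT against control was 0.25 (adjusted p = 0.31).

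Leaving out a library changed some of these calls but no direction in the 3 comparisons that passed. HS_AOS against HS lost its call without HS_AOS 2 (adjusted p = 0.0506), HS_AOS 3 (0.0723), HS 2 (0.0681) or HS 3 (0.136), and HS_AOS_FMT against HS lost it without HS_AOS_FMT 2 (0.122), HS_AOS_FMT 3 (0.0816), HS 2 (0.0654) or HS 3 (0.111), all adjusted p-values of limma. HS_AOS_FMT against HS_control_FMT kept its call whichever library was left out. Without the 3 adrenal-rich libraries the comparisons with HS did not pass (0.0759 for HS_AOS and 0.158 for HS_AOS_FMT), nor did HS_AOS against HS with these groups alone in the fit (0.194). Expressed relative to the 21 proximal tubule markers, the 3 changes were 0.52, 0.48 and 0.44 and none passed (adjusted p = 0.136, 0.103 and 0.116). The mean log2(FPKM + 1) of these markers was 8.31 to 8.40 in HS_AOS_FMT and 8.10 to 8.16 in HS_control_FMT, without overlap. In that comparison their median change was 0.165, against 0.07 over all genes. Of the 21, 15 were above 0 and 1 was called, higher, against 3.99% of all genes. After removal of the trends with GC content and transcript length within libraries they were 0.52, 0.56 and 0.53 and all 3 passed (adjusted p = 0.0406, 0.0221 and 0.0071).

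**Figure D2:**
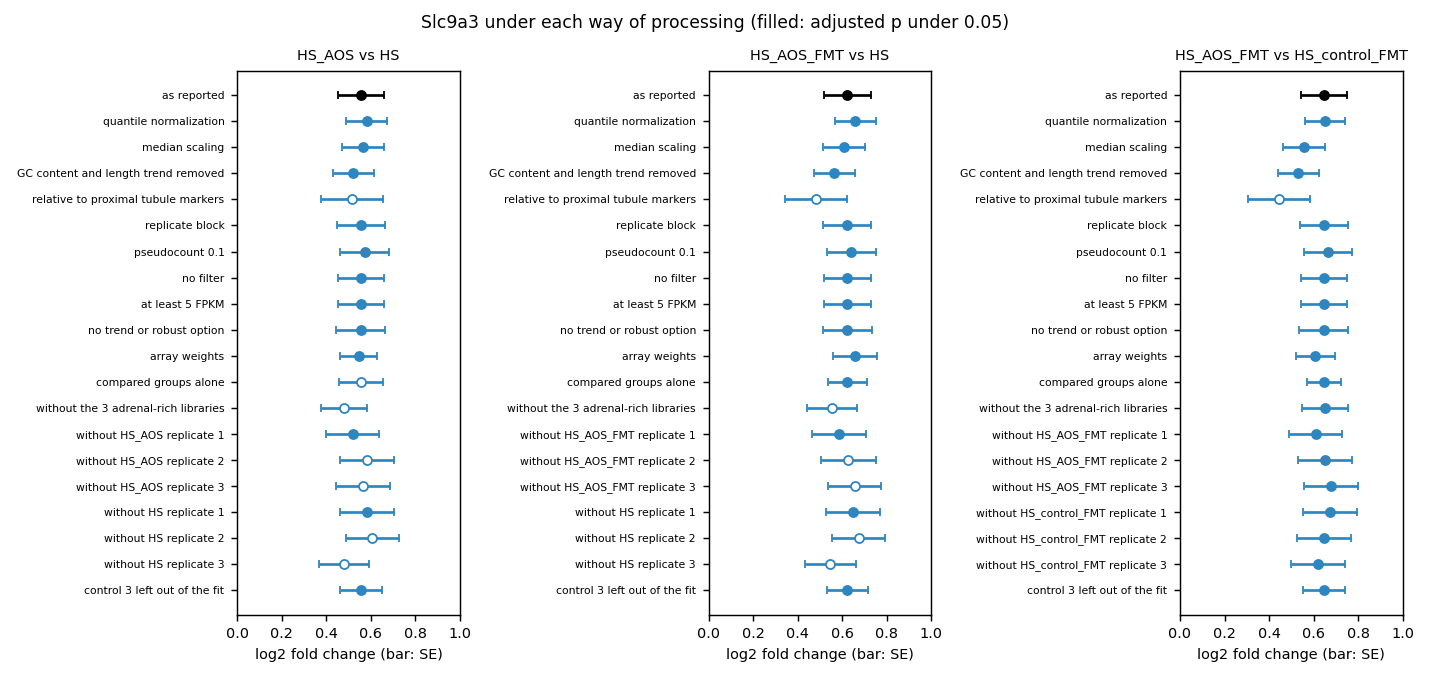
Log2 fold change of Slc9a3 (horizontal axes, bars are SE) in 3 comparisons, as reported (black) and under each other way of processing (blue); filled points have a limma adjusted p under 0.05. The changes lie between 0.48 and 0.61 for HS_AOS vs HS, between 0.48 and 0.67 for HS_AOS_FMT vs HS and between 0.44 and 0.68 for HS_AOS_FMT vs HS_control_FMT.

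Slc4a4 was highest in HS_AOS and lowest in AOS. NBCe1, its product, moves bicarbonate together with sodium out of the cell towards the blood. Slc4a4 had 120.05, 175 and 166 FPKM in HS_AOS, 144, 127 and 132 FPKM in HS_AOS_FMT and 112, 104 and 104 FPKM in HS_control_FMT. It had 115, 111 and 105 FPKM in HS, 101, 90 and 104 FPKM in AOS and 119.97, 107 and 126 FPKM in control. HS_AOS 2 and HS_AOS 3 stood above all other libraries, while HS_AOS 1 lay among the control libraries. The AOS libraries all lay below the control libraries, and HS_AOS and HS did not overlap. The means ran from 154 ± 29.6 FPKM in HS_AOS through HS_AOS_FMT, control, HS and HS_control_FMT to 98.4 ± 7.36 FPKM in AOS (SD, n = 3 each). HS_AOS_FMT and control, and HS_control_FMT and AOS, were the neighbours further apart than the larger SD.

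No single comparison of Slc4a4 passed. HS_AOS against HS fell just short (log2 fold change 0.46, SE 0.117, adjusted p = 0.0508), and passed at 0.63 without HS_AOS 1 (adjusted p = 0.00949), or once control 3 was taken out of the fit (adjusted p = 0.0308). It was 0.31 with the GC and length trend removed (adjusted p = 0.241) and 0.42 relative to proximal tubule markers (adjusted p = 0.2305). With the compared groups alone its limma adjusted p was 0.217, and it passed under 5 of 19 alternatives. HS_AOS_FMT gave smaller changes against HS (log2 fold change 0.28, SE 0.117, adjusted p = 0.215) and against HS_control_FMT (log2 fold change 0.33, SE 0.117, adjusted p = 0.129). With the GC and length trend removed these were 0.13 and 0.18, and relative to proximal tubule markers 0.14 and 0.12. AOS against control had the opposite sign (log2 fold change -0.26, SE 0.117, adjusted p = 0.674), at -0.14 by median scaling, -0.15 with the GC and length trend removed and -0.44 relative to proximal tubule markers, none of which passed. The difference of the AOS effects, that in HS minus that in control, was 0.72 (SE 0.166, limma adjusted p = 0.152), and it passed without HS_AOS 1, at 0.89 (adjusted p = 0.00735), but was 0.46 with the GC and length trend removed (adjusted p = 0.531). Against control, HS_AOS was higher by 0.36 with an adjusted p of 0.113, and by 0.53 with an adjusted p of 0.0145 without HS_AOS 1. With the GC and length trend removed that change was 0.26 (limma adjusted p = 0.2675). The test for any difference among the 6 groups did pass for Slc4a4 (adjusted p = 0.0246), and was lost without HS_AOS 2, HS_AOS 3, AOS 1 or AOS 2. The ratio of Slc4a4 to Slc9a3 within a library was 3.08, 4.96 and 4.55 in HS_AOS, against 4.46, 4.15 and 4.71 in HS, and these ranges overlapped.

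Aqp1, the water channel of the proximal tubule and also of the thin descending limb, was highest in HS_control_FMT. It had 244, 232 and 236 FPKM in HS_AOS, 278, 306 and 274 FPKM in HS_AOS_FMT and 334, 348 and 313 FPKM in HS_control_FMT. It had 196, 277 and 263 FPKM in HS, 281, 269 and 241 FPKM in AOS and 241, 286 and 302 FPKM in control. All 3 HS_control_FMT libraries lay above every other library, and HS 1 was the lowest. The means ran from 331 ± 17.5 FPKM in HS_control_FMT through HS_AOS_FMT, control, AOS and HS to 237 ± 6.21 FPKM in HS_AOS (SD, n = 3 each), and only the top pair was further apart than the larger SD. HS_control_FMT against HS did not pass (log2 fold change 0.45, SE 0.119, adjusted p = 0.0997), nor did HS_control_FMT against control (log2 fold change 0.27, SE 0.119, adjusted p = 0.237). HS_control_FMT against HS did pass with control 3 left out of the fit (adjusted p = 0.0486), with each library shifted to the same median (0.52, adjusted p = 0.0277) and with the GC and length trend removed (0.57, adjusted p = 0.0165). Without HS 1 it was 0.29 (adjusted p = 0.259), and HS_control_FMT against control was 0.17 without control 1 (adjusted p = 0.437). The 5 thin limb markers summed to between 156 and 296 FPKM in HS_control_FMT, against 135 to 254 FPKM in HS and 92.6 to 181 FPKM in control, and their part in the level of Aqp1 was not tested. HS_AOS against HS was -0.03 for Aqp1, with an interval of -0.29 to 0.22.

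Of the endocytic genes, Dab2 rose in HS_AOS against both HS and control, and Lrp2 and Cubn were higher in HS_AOS than in HS without passing the test. Amn did not follow them. Dab2 is the adaptor that links the tails of megalin to clathrin. Dab2 had 193, 231 and 226 FPKM in HS_AOS, 227, 205 and 188 FPKM in HS_AOS_FMT and 168, 178 and 139.8 FPKM in HS_control_FMT. It had 149.9, 177 and 158 FPKM in HS, 177, 186 and 165 FPKM in AOS and 160.2, 163 and 157 FPKM in control. Every HS_AOS and HS_AOS_FMT library lay above every library of the other 4 groups, and control was the tightest group. Its group means ran from 217 ± 20.6 FPKM in HS_AOS through HS_AOS_FMT, AOS, HS_control_FMT and HS to 160.1 ± 3.37 FPKM in control (SD, n = 3 each), and only HS_AOS_FMT and AOS were further apart than the larger SD.

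Dab2 rose in HS_AOS against HS (log2 fold change 0.42, SE 0.104, adjusted p = 0.0495) and against control (log2 fold change 0.43, SE 0.104, adjusted p = 0.0415), both close to the threshold. HS_AOS_FMT against HS (log2 fold change 0.35, SE 0.104, adjusted p = 0.103), against control (log2 fold change 0.36, SE 0.104, adjusted p = 0.119) and against HS_control_FMT (log2 fold change 0.35, SE 0.104, adjusted p = 0.072) did not pass. The last of these did once control 3 was left out of the fit (adjusted p = 0.0467). With the GC and length trend removed it was 0.23 (adjusted p = 0.255), and relative to proximal tubule markers the 3 changes were 0.21, 0.16 and 0.15 (adjusted p between 0.381 and 0.549). HS_control_FMT and HS differed by -0.003 on the log2 scale (interval -0.23 to 0.22). The call against HS was lost without HS_AOS 2 (adjusted p = 0.14), HS_AOS 3 (0.161), HS 1 (0.0888), HS 2 (0.101) or HS 3 (0.194), and that against control without HS_AOS 2 (0.128), HS_AOS 3 (0.135), control 1 (0.107) or control 2 (0.0738), all by limma. With the GC and length trend removed the change against HS was 0.30 (adjusted p = 0.213) and that against control 0.35 (adjusted p = 0.105). Both calls were also lost by median scaling (0.0594 against HS and 0.0595 against control), without the 3 adrenal-rich libraries (0.144 and 0.0743), relative to proximal tubule markers (0.166 and 0.187), without the trend and robust options (0.0611 and 0.0505) and with the compared groups alone (0.194 and 0.442). The replicate number as a block (0.0557) and no filter (0.0726) ended the call against HS. In all, it held under 6 of 19 alternatives against HS and under 8 of 18 against control.

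Lrp2, megalin, a very large receptor that binds many filtered proteins, had 137, 178 and 184 FPKM in HS_AOS, 155, 145 and 156 FPKM in HS_AOS_FMT and 144, 131 and 148 FPKM in HS_control_FMT. It had 125, 129.96 and 119 FPKM in HS, 147, 145 and 152 FPKM in AOS and 142, 161 and 99.1 FPKM in control. Control 3 was the lowest library, and HS_AOS 1 was lower than the other HS_AOS libraries, although all 3 HS_AOS libraries lay above all 3 HS libraries. The means ran from 166 ± 26 FPKM in HS_AOS through HS_AOS_FMT, AOS, HS_control_FMT and control to 125 ± 5.55 FPKM in HS (SD, n = 3 each), with no neighbours further apart than the larger SD. HS_AOS against HS did not pass (log2 fold change 0.40, SE 0.143, adjusted p = 0.134). It passed with control 3 left out of the fit (adjusted p = 0.028) and, at 0.54, without HS_AOS 1 (adjusted p = 0.0404). With the GC and length trend removed it was 0.28 (adjusted p = 0.505), and without HS_AOS 3 it was 0.32 (adjusted p = 0.373). By limma it passed under 3 of 19 alternatives. HS_AOS against control gave log2 fold change 0.33, SE 0.143, adjusted p = 0.237, and 0.13 without control 3 (adjusted p = 0.502).

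Cubn, cubilin, had 50.9, 60.1 and 61.6 FPKM in HS_AOS, 50.7, 53.5 and 46.9 FPKM in HS_AOS_FMT and 45.3, 38.9 and 40 FPKM in HS_control_FMT. It had 45.9, 42.9 and 45.6 FPKM in HS, 46.4, 42.8 and 49.4 FPKM in AOS and 39.3, 46.9 and 51.5 FPKM in control. HS_AOS lay above HS without overlap and HS_AOS_FMT above HS_control_FMT without overlap, while control spanned from below HS to the lower end of HS_AOS. Group means ran from 57.5 ± 5.82 FPKM in HS_AOS through HS_AOS_FMT, AOS, control and HS to 41.4 ± 3.45 FPKM in HS_control_FMT (SD, n = 3 each), and HS_AOS and HS_AOS_FMT, and HS_AOS_FMT and AOS, were further apart than the larger SD. HS_AOS against HS (log2 fold change 0.35, SE 0.103, adjusted p = 0.0817) and HS_AOS_FMT against HS_control_FMT (log2 fold change 0.28, SE 0.103, adjusted p = 0.144) did not pass. HS_AOS against control did not pass either (log2 fold change 0.32, SE 0.103, adjusted p = 0.11). The difference of the AOS effects was 0.33 (limma adjusted p = 0.302). HS_AOS against HS passed with control 3 left out of the fit (adjusted p = 0.0403) and, at 0.43, without HS_AOS 1 (adjusted p = 0.0304). HS_AOS against control passed, at 0.41, without control 3 (adjusted p = 0.0333). With the GC and length trend removed these changes were 0.19 against HS (adjusted p = 0.318) and 0.21 against control (adjusted p = 0.215), and the difference of the AOS effects was 0.07. HS_AOS_FMT against HS_control_FMT was 0.13 with that trend removed and 0.08 relative to proximal tubule markers.

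Amn, amnionless, the membrane anchor of cubilin, had 124, 94.1 and 82.9 FPKM in HS_AOS, 116, 106 and 72.5 FPKM in HS_AOS_FMT and 113, 118 and 88.7 FPKM in HS_control_FMT. It had 124, 153 and 111 FPKM in HS, 99.8, 115 and 107 FPKM in AOS and 125, 104 and 93.1 FPKM in control. HS 2 was the highest library and HS_AOS_FMT 3 the lowest. Averaged by group, it ran from 129 ± 21.4 FPKM in HS through AOS, control, HS_control_FMT and HS_AOS to 98.1 ± 22.8 FPKM in HS_AOS_FMT (SD, n = 3 each), and only HS and AOS were further apart than the larger SD. HS_AOS_FMT against HS had an unadjusted p under 0.05 and did not pass (log2 fold change -0.41, SE 0.187, adjusted p = 0.26). With the GC and length trend removed that change was -0.16 (adjusted p = 0.767), and without HS_AOS_FMT 3 it was -0.21 (adjusted p = 0.664). HS_AOS against HS was -0.37 for Amn, with an interval of -0.77 to 0.03. The ratio of Cubn to Amn within a library lay between 0.28 and 0.744, and that of Lrp2 to Cubn between 1.93 in control 3 and 3.7, with a median of 3.07.

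**Figure D3:**
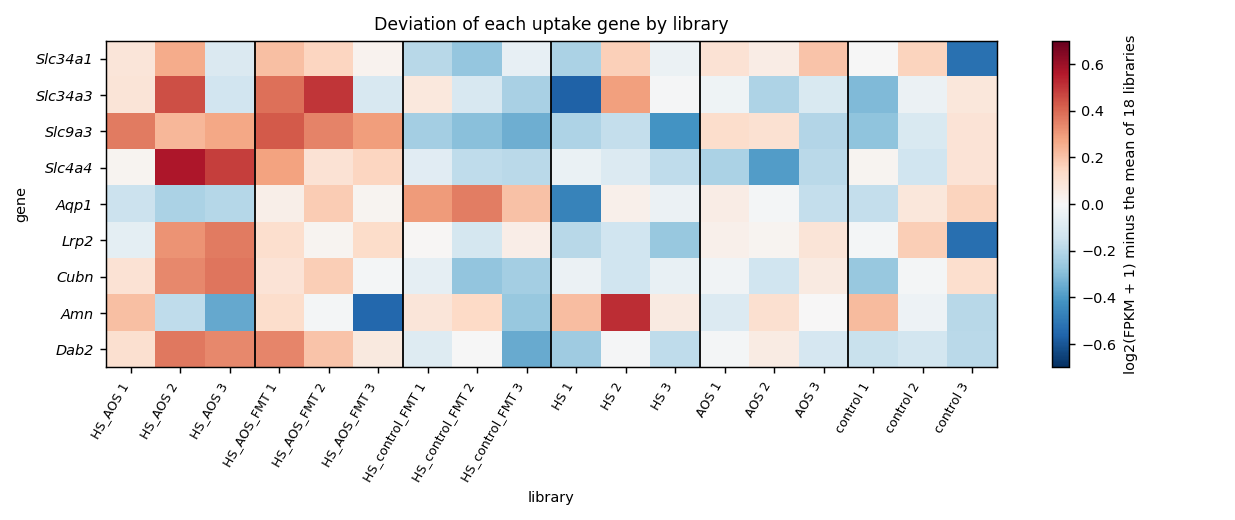
Deviation of each of the 9 genes (rows) from its mean over 18 libraries, in log2(FPKM + 1), for each library (columns, black lines between groups); red is above the mean and blue below. Slc9a3 is above its mean in every HS_AOS and HS_AOS_FMT library, and Lrp2 and Slc34a1 have their lowest values in control 3, at 99.1 and 1762 FPKM.

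Set side by side, the comparisons differed in how many of the 9 genes passed and in which. In HS_AOS against HS, 2 of the 9 passed, Slc9a3 and Dab2, both higher, while 2.3% of all tested genes did. At an unadjusted p under 0.05 there were 5 (Slc9a3, Slc4a4, Lrp2, Cubn and Dab2), while 20.3% of all genes were under that level. The median log2 fold change of the 9 was 0.35, against 0.01 over all tested genes, and 7 of the 9 were above 0. The genes of the proximal tubule marker list had a median of 0.16 in this comparison, with 15 of 21 above 0 and none called (5 at an unadjusted p under 0.05). Thick ascending limb markers (8 genes) summed to between 777 and 1001 FPKM in HS_AOS, against 1071 to 1494 FPKM in HS, with all 8 lower and none called (1 at an unadjusted p under 0.05). Transcript GC content was 45.7% for Dab2, 45.9% for Slc4a4, 46.4% for Cubn, 49.1% for Lrp2 and 50.9% for Slc9a3, all higher in HS_AOS, and 62.9% for Amn, which was lower. It was 54.7% for Slc34a1 and 56.4% for Slc34a3, with changes of 0.12 and 0.23, and 54.9% for Aqp1, with a change of -0.03. Transcript length was 15460 bases for Lrp2, 11262 for Cubn, 7931 for Slc4a4, 5118 for Slc9a3 and 4663 for Dab2. It was 3983 bases for Slc34a1, 2627 for Aqp1, 2183 for Slc34a3 and 1701 for Amn. The trends with GC content and length were removed together, so their parts cannot be told apart. Erythroid markers (6 genes) summed to between 3241 and 4689 FPKM in HS_AOS and 3271 and 4092 FPKM in HS_AOS_FMT, against 7079 to 15536 FPKM in HS, with no overlap, medians of -1.02 and -1.38 and none called. Thin limb and perirenal fat markers had medians of -0.76 and -1.07 in HS_AOS against HS, with none called. The part of other cell types in these changes was not tested.

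In HS_AOS_FMT against HS, 1 of the 9 passed, Slc9a3, with 0.977% of all genes called. Unadjusted, there were 4 (Slc9a3, Dab2 and Slc4a4 higher, Amn lower), against 18.1% of all genes. In HS_AOS_FMT against HS_control_FMT, 1 of the 9 passed, again Slc9a3, with 3.99% of all genes called, and 4 were under 0.05 unadjusted (Slc9a3, Slc4a4, Cubn and Dab2, all higher), against 19.8% of all genes. The medians of the 9 were 0.28 and 0.30 in these comparisons, against 0.00 and 0.07 over all genes. HS_control_FMT against HS called none of the 9, with 0.751% of all genes called, and 1, Aqp1, was under 0.05 unadjusted, against 15.2% of all genes. The median of the 9 there was -0.02, against -0.08 over all genes. The comparisons with HS share the HS libraries, and the 2 comparisons of HS_AOS_FMT share its libraries too.

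**Figure D4:**
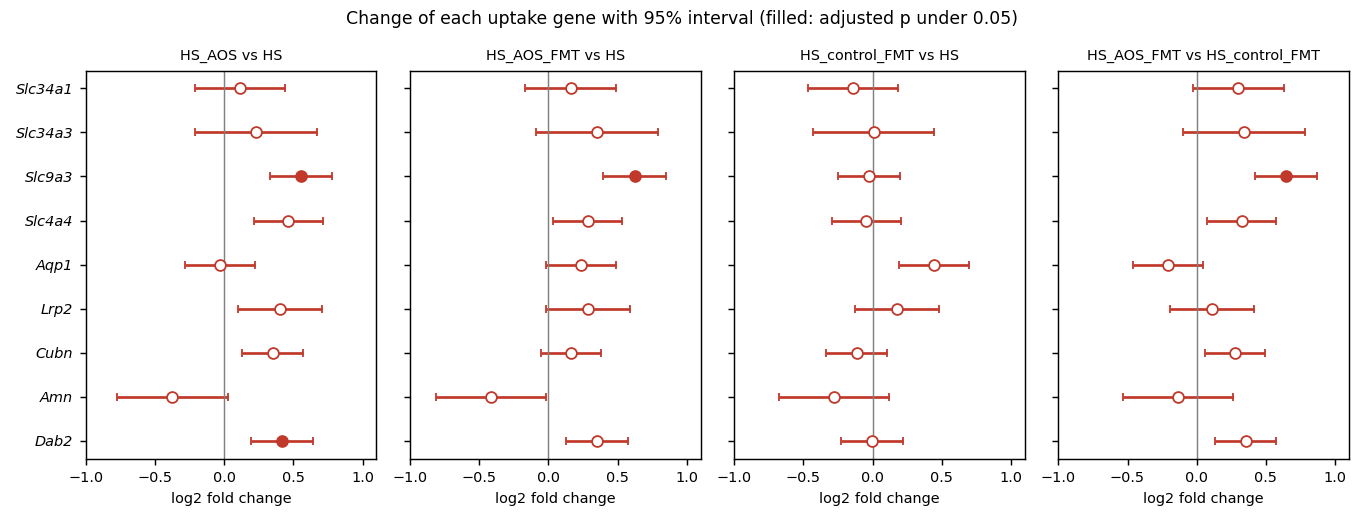
Log2 fold change of each of the 9 genes (rows) with its 95% interval (bars) in 4 comparisons (panels); filled points have a limma adjusted p under 0.05. Slc9a3 is filled in 3 panels, at 0.56, 0.62 and 0.65, and Dab2 is filled only in HS_AOS vs HS, at 0.42.

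Diet and STZ without AOS or FMT left the 9 genes without a detected difference. In HS against control none of the 9 passed by limma and none was under 0.05 unadjusted, while 0.0646% and 6.63% of all genes were. Their median was -0.03, against 0.00 over all genes, and the 95% intervals reached from -0.44 to 0.67 on the log2 scale over the 9. In AOS against control none passed, with 0.0646% of all genes called, and 1, Slc4a4, was under 0.05 unadjusted, against 7.28% of all genes. The median of the 9 there was 0.02, against -0.09 over all genes, of which 26.6% were above 0. The difference of the AOS effects, HS_AOS against HS minus AOS against control, called none of the 9, with 0.0727% of all genes called. Unadjusted, there were 3 (Slc4a4, Slc9a3 and Cubn), against 15% of all genes. The median of that difference was 0.26 over the 9 and 0.10 over all genes, so these values stand on a general shift of that size. For Slc9a3 the difference was 0.45 (SE 0.149, limma adjusted p = 0.216), and 0.28 without the adrenal-rich libraries, so that a larger change in HS than in control mice was not shown.

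**Figure D5:**
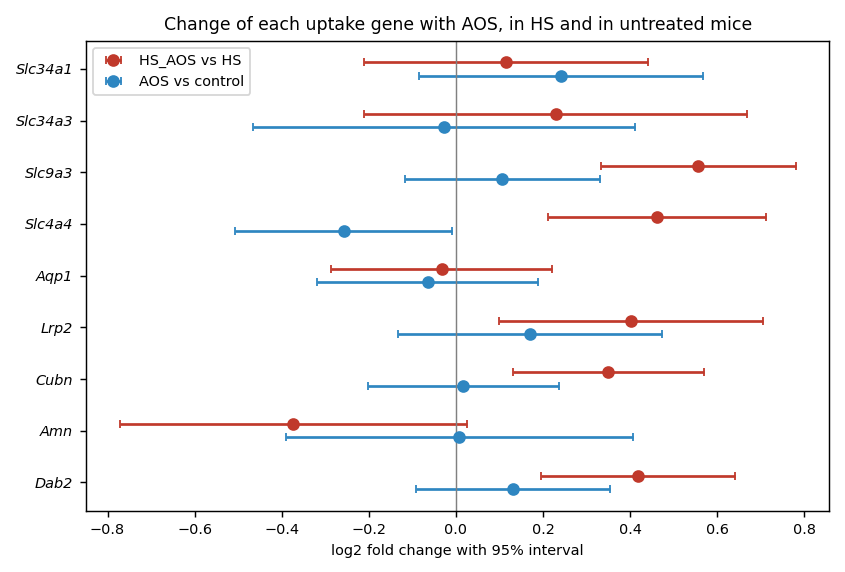
Log2 fold change of each of the 9 genes (rows) with its 95% interval for HS_AOS vs HS (red, upper) and AOS vs control (blue, lower). Slc4a4 lies on opposite sides of 0, at 0.46 and -0.26, and Slc9a3 lies at 0.56 and 0.11.

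Against control, HS_AOS called 1 of the 9, Dab2, with 2.87% of all genes called, and 5 were under 0.05 unadjusted (Slc9a3, Slc4a4, Lrp2, Cubn and Dab2), against 18.3% of all genes. Of the 8 thick ascending limb markers 2 were called lower there, with a median of -0.92. The 21 proximal tubule markers had a median of 0.26, with 16 above 0 and none called. The median over all genes was 0.01. Of 7 macrophage markers 1 was called lower. The part of other cell types in these changes was not tested. HS_AOS_FMT against control called none, with 0.46% of all genes called, and 2, Slc9a3 and Dab2, were under 0.05 unadjusted, against 15.4% of all genes. HS_control_FMT against control called none, with 3.27% of all genes called, and 1, Aqp1, was under 0.05 unadjusted, against 19.1% of all genes. The test for any difference among the 6 groups called 3 of the 9, with 8.21% of all genes called. These were Slc9a3 (adjusted p = 0.00641), Slc4a4 (adjusted p = 0.0246) and Dab2 (adjusted p = 0.0331). Cubn (0.069) and Aqp1 (0.0852) came next, and Lrp2, Slc34a1, Amn and Slc34a3 had adjusted p-values between 0.279 and 0.521. Only Slc9a3 passed this test without HS_AOS 2, HS_AOS 3, AOS 1 or AOS 2, and 5 of the 9 passed it without control 3, with Cubn and Aqp1 added. Without control 3, 2511 of all genes passed it, against 1017 with all libraries.

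Other genes of the same pathways were read from 4 lists that leave out the 9. The phosphate list (17 genes) had 1 gene called in HS_AOS_FMT against HS_control_FMT, where 3.99% of all genes were called. It was Fgfr3, one of the receptors that FGF23, a hormone that lowers phosphate recovery, can act on. Fgfr3 had 13.8, 15.5 and 12.2 FPKM in HS_AOS_FMT, against 8.98, 8.34 and 8.53 FPKM in HS_control_FMT (log2 fold change 0.62, SE 0.136, adjusted p = 0.0246), with no overlap, and the call was lost without HS_AOS_FMT 1 or 2 or any 1 HS_control_FMT library (adjusted p between 0.0596 and 0.131) and relative to proximal tubule markers (0.42, adjusted p = 0.257). In HS_control_FMT against control the list had 1 called against 3.27% of all genes, Slc20a1, a phosphate carrier found in most cells. Slc20a1 had 50.2, 47.3 and 27.5 FPKM in HS_control_FMT, against 13.2, 11.3 and 21.8 FPKM in control (log2 fold change 1.38, SE 0.279, adjusted p = 0.0156), and the call was lost without HS_control_FMT 1 (adjusted p = 0.0683) or HS_control_FMT 2 (0.0635), relative to proximal tubule markers (0.0557) and with the compared groups alone (0.217). No gene of this list was called in the other comparisons of groups by limma, where between 0 and 4 genes were under 0.05 unadjusted, against 6.63% to 20.3% of all genes, and the same 2 genes passed the test over the 6 groups, which 8.21% of all genes did.

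The sodium and bicarbonate list (21 genes) had Agtr1a, the main angiotensin II receptor of the tubule, called higher in HS_AOS_FMT than in HS_control_FMT, 1 of 21 against 3.99% of all genes. Agtr1a had 27.1, 28.9 and 22.4 FPKM in HS_AOS_FMT, against 16.9, 16.6 and 15.1 FPKM in HS_control_FMT (log2 fold change 0.66, SE 0.114, adjusted p = 0.00762). The libraries did not overlap, and the call was lost without HS_AOS_FMT 2 (adjusted p = 0.0553) and relative to proximal tubule markers (0.45, adjusted p = 0.134). In HS_control_FMT against control it was again the only gene of the list called, against 3.27% of all genes, and lower in HS_control_FMT than in control, which had 20.2, 22.9 and 28 FPKM (log2 fold change -0.52, SE 0.114, adjusted p = 0.0228). That call was lost without control 3 (adjusted p = 0.0615) or without any 1 HS_control_FMT library (0.0563 to 0.0813), without the 3 adrenal-rich libraries (0.0759), relative to proximal tubule markers (0.14) and with the compared groups alone (0.285). HS_AOS against control had 2 of the 21 called, against 2.87% of all genes. Slc26a6, an anion exchanger of the brush border, had 10.9, 9.26 and 9.75 FPKM in HS_AOS, against 4.25, 2.83 and 4.12 FPKM in control (log2 fold change 1.23, SE 0.218, adjusted p = 0.0162), and kept its call whichever library was left out but not with the compared groups alone (adjusted p = 0.122). Glud1, glutamate dehydrogenase, an enzyme of ammonia production, had 287, 304 and 347 FPKM in HS_AOS, against 163, 166 and 212 FPKM in control (log2 fold change 0.80, SE 0.173, adjusted p = 0.0277). The Glud1 call was lost without HS_AOS 2 (adjusted p = 0.064), HS_AOS 3 (0.104), control 1 (0.095) or control 2 (0.0683), relative to proximal tubule markers (0.153) and with the compared groups alone (0.244). Both genes varied within HS, where HS 1 had 12.8 FPKM of Slc26a6 and 342 FPKM of Glud1, against 5.82 and 5.71 FPKM, and 186 and 204 FPKM, in HS 2 and HS 3. Slc26a6 lay above every control library in all HS libraries too, without passing (log2 fold change 0.87, SE 0.218, limma adjusted p = 0.3445). The same held for HS_AOS_FMT (7.71, 5.92 and 5.6 FPKM) and HS_control_FMT (5.61, 4.38 and 5.16 FPKM). The other comparisons called none of the 21 by limma, with between 1 and 5 under 0.05 unadjusted, against 6.63% to 20.3% of all genes. In the test over the 6 groups 4 passed (Slc26a6, Fxyd2, Glud1 and Agtr1a), while 8.21% of all genes did. Of these, Fxyd2 was lower in HS_AOS (5700, 5317 and 4668 FPKM) than in HS (6072, 8130 and 7248 FPKM), without overlap. That difference did not pass (log2 fold change -0.45, SE 0.12, limma adjusted p = 0.0638). HS_AOS_FMT was also lower than HS in Fxyd2 without passing (log2 fold change -0.51, SE 0.12, limma adjusted p = 0.0551).

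The endocytosis and lysosome list (28 genes) had 1 gene called higher and 1 called lower in HS_AOS against HS, where 2.3% of all genes were called. Myo6, a motor protein that moves coated vesicles inwards, had 45.1, 50.7 and 52.7 FPKM in HS_AOS, against 40, 42.1 and 38 FPKM in HS (log2 fold change 0.30, SE 0.068, adjusted p = 0.0364). Tfeb, a transcription factor for lysosomal genes, had 11.3, 10.8 and 7.76 FPKM in HS_AOS, against 14.1, 13.8 and 14.6 FPKM in HS (log2 fold change -0.49, SE 0.11, adjusted p = 0.0364). Both calls were lost without HS_AOS 2, HS_AOS 3, HS 2 or HS 3 (adjusted p between 0.0666 and 0.178), and with the GC and length trend removed the changes were 0.13 and -0.22 (adjusted p = 0.391 and 0.282). Both were also lost with the replicate block (0.0613 and 0.0575), relative to proximal tubule markers (0.339 and 0.147), without the adrenal-rich libraries (0.129 and 0.114), without the filter (0.0517 and 0.0562) and with the compared groups alone (0.216 and 0.194), and that of Myo6 by median scaling (0.0645) and without the trend and robust options (0.0519). The other comparisons called none of the 28 by limma, with between 2 and 7 under 0.05 unadjusted, against 6.63% to 19.8% of all genes. Myo6 alone passed the test over the 6 groups, while 8.21% of all genes did. The median change of the 28 in HS_AOS against HS was 0.01, the same as over all genes. The water channel list (7 genes, without Aqp1) had none called in any comparison by limma, with between 0 and 2 genes under 0.05 unadjusted, against 6.63% to 20.3% of all genes.

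Over the 18 libraries the levels of Dab2 and Slc9a3 had a Pearson r of 0.80, those of Cubn and Slc4a4 0.77, and those of Dab2 and Slc4a4 0.70, in log2(FPKM + 1). Amn had a negative r with 6 of the other 8 genes, the lowest being -0.41 with Cubn. Aqp1 was negative with all but Slc34a3. The points share their groups and libraries, so these values describe the libraries and carry no test.

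Among the genes whose pattern over the 18 libraries was most like that of Lrp2 were Lactb2 (Pearson r = 0.935, Spearman rho = 0.889), Cyp2j5 (0.932 and 0.886), Clcn3 (0.924 and 0.883) and Rnf11 (0.909 and 0.867). Without control 3 and HS_AOS 3, the libraries farthest from the median of Lrp2, r of these 4 lay between 0.805 and 0.857. The 5 most like Slc34a1 were Apeh (0.865 and 0.752), Ass1 (0.857 and 0.822), Tcn2 (0.856 and 0.759), Wdr81 (0.832 and 0.806) and Mgat3 (0.824 and 0.787). Without control 3 and HS_control_FMT 2 their r lay between 0.681 and 0.80.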

How the data were processed

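Kidney RNA was sequenced in 18 samples, 3 in each of 6 groups taken from the labels. Bowtie 0.12.2 and the build mm10 are named, per the submitters' processing notes, while the quantification program, gene annotation and strandedness were not given in the sources used here. A single table was deposited by the authors, with FPKM values per gene symbol, rounded to 2 decimals, with no counts, and the values themselves gave the unit. After multiplication by transcript length, the library sums had a coefficient of variation of 0.93%, against 4.29% without it. Depth is not stated. If the smallest step between low values is 1 read, depth was 8.7 to 12.5 M reads, but whole reads were not recovered, so no count test was run.

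From these values, log2(FPKM + 1) was fitted with 1 mean per group over all 18 libraries in limma 3.58.1 (R 4.3.3, trend and robust options, 12 residual degrees of freedom). Genes were tested where 3 or more libraries had 1 FPKM or more, which kept 12385 and left out 7160. Benjamini-Hochberg adjustment ran over all tested genes of a comparison, and an adjusted p under 0.05 passed. The test over the 6 groups was limma's moderated F-test, and the scripts were tested on simulated data.

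The 9 genes and all gene lists were chosen with earlier results of these data known. A fold change with its error was printed for any of the 9 that passed or had an unadjusted p under 0.05, and for the 1 with the smallest p of a comparison otherwise. Genes of the 4 pathway lists were named where they passed over all genes, at most 4 per list and comparison. For Lrp2 and Slc34a1 the 5 genes with the highest Pearson r were to be named, of which 1 is not reported here. The alternatives were quantile normalization, a shift of each library to the same median, removal of the trends with GC content and transcript length within each library (natural splines with 4 degrees of freedom, over 12254 genes, 98.9% of those tested), values relative to the 21 proximal tubule markers, the replicate number as a block, a pseudocount of 0.1, no filter, at least 5 FPKM, no trend or robust option, array weights, the compared groups alone, the 3 adrenal-rich libraries left out, and each library left out in turn. Leaving control 3 out of the fit of comparisons that do not use it was added after seeing the data. Positions and promoter windows are from RefSeq on GRCm38.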

Additional observations from a re-analysis of the deposited data

Results flagged for a closer look

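Slc4a4, the sodium and bicarbonate carrier NBCe1, had values on opposite sides of the mice without AOS, depending on diet and STZ. Every HS_AOS library lay above every HS library, and every AOS library lay below every control library. Slc4a4 was flagged for this very pattern, so the pattern adds no support of its own. How many of all genes show it was not counted. In AOS against control 26.6% of all tested genes were above 0. HS_AOS against HS was 0.46 (adjusted p = 0.0508) and AOS against control -0.26 (adjusted p = 0.674), and neither passed limma's test. The difference between these 2 values was 0.72 on the log2 scale (SE 0.166), and the test of that difference did not pass (limma adjusted p = 0.152). It passed under 2 of 24 alternatives, at 0.89 without HS_AOS 1 (adjusted p = 0.00735) and at 0.85 with array weights (adjusted p = 0.00226). With the GC and length trend removed it was 0.46 (adjusted p = 0.531). AOS against control alone was -0.14 by median scaling.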

How the results depend on the processing

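Counts of the 9 genes that passed moved with the processing as follows. In HS_AOS against HS the count of 2 became 4 by quantile normalization, 5 with control 3 left out of the fit, 6 with array weights, 3 with at least 5 FPKM (Slc4a4 added), 1 by median scaling, with the GC and length trend removed, with the replicate block, without the filter or without the trend and robust options, and 0 relative to proximal tubule markers, with the compared groups alone or without the 3 adrenal-rich libraries. Leaving out 1 library gave 0 to 5. For at least 5 FPKM and for control 3 left out of the fit, counts over all genes are not given here. The counts of the 9 under these settings therefore have no share of all genes beside them. Without control 3 the test over the 6 groups called 2511 of all genes, against 1017 with all libraries. In HS_AOS against control the count of 1 became 2 by quantile normalization, 5 with array weights, and 0 with the GC and length trend removed, relative to proximal tubule markers, without the trend and robust options or with the compared groups alone, and leaving out 1 library gave 0 to 3. By median scaling and without the adrenal-rich libraries that count stayed at 1, with Slc9a3 in place of Dab2. In HS_AOS_FMT against HS the count of 1 became 0 relative to proximal tubule markers or without the adrenal-rich libraries and 3 with array weights, and leaving out 1 library gave 0 to 1. In HS_AOS_FMT against HS_control_FMT the count of 1 became 0 relative to proximal tubule markers, 4 with array weights and 2 when control 3 was left out, and it was 1 whichever library was left out. Counts of 0 became 1 by quantile normalization, median scaling or no filter, 2 with array weights and 0 to 1 with 1 library left out in HS_AOS_FMT against control. They became 1 with array weights in HS_control_FMT against control, and 1 by median scaling, with the GC and length trend removed, with array weights or with control 3 left out of the fit in HS_control_FMT against HS. In the difference of the AOS effects the count of 0 became 4 with array weights and 0 to 1 with 1 library left out. The test over the 6 groups went from 3 to 0 relative to proximal tubule markers, to 8 with array weights and to between 1 and 5 with 1 library left out. HS against control and AOS against control stayed at 0 under every alternative run. The estimation of the array weights stopped before its tolerance was reached. With array weights, of all 12385 tested genes, 4084 passed in HS_AOS against HS, 3420 in HS_AOS against control and 7790 over the 6 groups. HS_AOS_FMT called 1711 against HS, 2409 against HS_control_FMT and 1148 against control. HS_control_FMT called 1473 against HS and 1976 against control, and the difference of the AOS effects called 1914. The cause of these differences was not tested. The change of Slc9a3 in HS against control, -0.17, was 0.004 without the adrenal-rich libraries.

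Over all genes, HS_AOS against HS called 285, with 477 by quantile normalization, 19 with the GC and length trend removed, 1 relative to proximal tubule markers, 89 with the replicate block and between 0 and 789 with 1 library left out. HS_AOS_FMT against HS called 121, with 28 and 37 under the GC and block alternatives, and HS_AOS_FMT against HS_control_FMT called 494, with 456 and 276. Over all the alternatives, leaving out a library included, counts of genes called ran from 0 to 4084 in HS_AOS against HS, 0 to 1711 in HS_AOS_FMT against HS, 16 to 1473 in HS_control_FMT against HS (93 as reported), 65 to 2409 in HS_AOS_FMT against HS_control_FMT, 0 to 245 in HS against control (8), 0 to 233 in AOS against control (8), 6 to 3420 in HS_AOS against control (356), 0 to 1148 in HS_AOS_FMT against control (57), 10 to 1976 in HS_control_FMT against control (405), 0 to 1914 in the difference of the AOS effects (9) and 393 to 7790 in the test over the 6 groups (1017). Same-numbered libraries of different groups had 45 correlations of their deviations, from -0.356 to 0.312 (median -0.01). Libraries of other numbers had 90, from -0.48 to 0.435 (median 0.01). Above 0.1 were 14 of the 45 and 26 of the 90. These values show no pairing over all groups and cannot tell whether some groups or genes share it. For Amn in HS_AOS_FMT against HS the SE was 0.136 with the replicate block and 0.187 without it. With the replicate block Slc9a3 passed in the same 3 comparisons, and Dab2 did not pass against HS. Without counts the depth behind each value is unknown, and 3 libraries a group limit what could be detected.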
